A study of Mus musculus with 11 samples.

Results

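The genes described here are 10 genes of the Notch pathway in the sinusoidal endothelium of the mouse liver, namely the receptors *Notch1*, *Notch2* and *Notch4*, the ligands *Dll4*, *Dll1*, *Jag1* and *Jag2*, the target genes *Hes1* and *Hey1*, and the transcription factor gene *Rbpj*. They were chosen by name from the 29307 genes of the deposited count table, with earlier results of these data known. All 10 had enough counts to be among the 12905 genes that were tested. The study asked how the gut microbiota affects the transcriptome of hepatic sinusoidal endothelial cells (ECs). Livers of male C57BL/6J mice aged 10 to 12 weeks were dissociated, and cells positive for CD146, CD31 and CD105 were sorted. The germ-free (GF) group held 5 mice from colonies kept in sterile isolators. The conventionally raised (CONV-R) group held 6 specific-pathogen-free mice that came from those same colonies, and both groups ate the same diet. Each mouse gave 1 bulk RNA library, so the p-values measure the spread between mice. The cDNA was amplified before sequencing because few sorted cells were viable. The paper reports fewer sorted ECs and less RNA from GF than from CONV-R livers. This difference runs along the compared groups, and its part in the results was not tested.

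Notch receptors sit on one cell and are activated by Delta-like and Jagged ligands on a neighbouring cell. Ligand binding leads to cleavage of the receptor, first by ADAM proteases and then by the gamma-secretase complex, and the freed intracellular domain enters the nucleus. There it joins the DNA-binding protein RBPJ and Mastermind coactivators and turns on target genes such as those of the HES and HEY families, which encode transcriptional repressors. In blood vessels the pathway is known for arterial specification and for restraining sprouting, and in the liver its activity is known to alter the differentiation of sinusoidal ECs.

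In GF mice the receptor gene *Notch4*, the ligand gene *Jag2* and the target gene *Hey1* were higher than in CONV-R mice. No gene of the 10 was called lower. These 3 of 10 genes passed edgeR's quasi-likelihood test at an adjusted p under 0.05, against 7.48% of all tested genes in either direction, 4.8% in the higher direction and 2.67% in the lower direction. The same 3 were the only ones of the 10 whose GF and CONV-R libraries did not overlap, with every GF value above every CONV-R value, against 3.22% of tested genes in that direction, 2.37% in the opposite one and 5.59% in either. *Jag2* reached the filter on low counts only with its GF libraries, so its call is not read as support for the count. The other 9 genes passed the filter within either group. By edgeR's quasi-likelihood test, 5 of the 10 genes had an unadjusted p under 0.05, against 2968 of the 12905 tested genes. The fold change on the log2 scale (Log2FC, GF relative to CONV-R) was positive for 8 of the 10 genes. It was negative for *Dll1* and *Rbpj*, which did not pass after adjustment. Its median was 0.40 over the 10 genes and -0.0061 over all tested genes, while 6 pan-endothelial marker genes had a median of 0.30 and 7 sinusoidal ones of 0.11. Fewer cells of a type and less RNA per cell cannot be told apart in these bulk libraries. Expression is given as CPM, the counts of a gene per 1000000 counts of the TMM-adjusted total over the tested genes of its library.

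**Figure D1:**
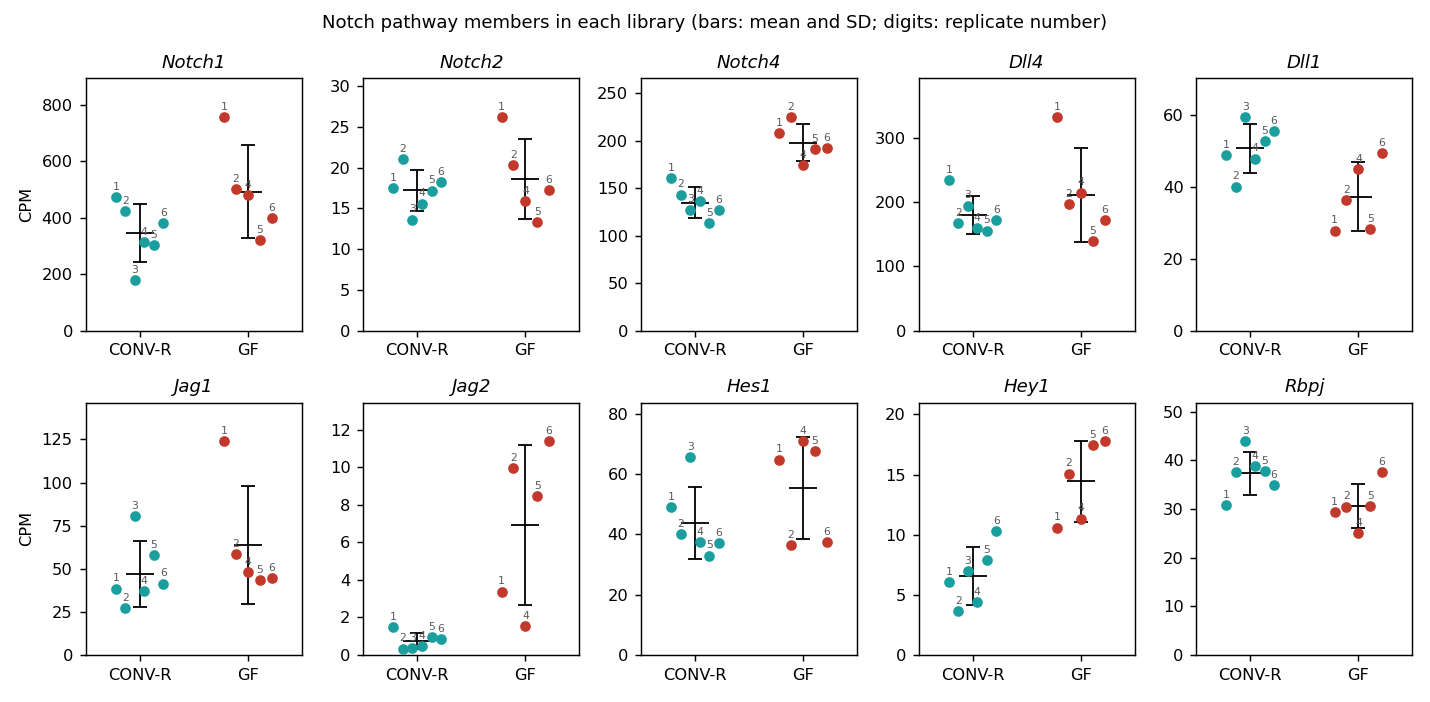
CPM (vertical axes, each from 0) of the 10 genes in the 6 CONV-R and 5 GF libraries, where each point is 1 mouse labelled with its replicate number and the bars give the mean and SD. The groups are separate for *Notch4*, *Jag2* and *Hey1* and overlap for the other 7 genes, and GF replicate 1 stands highest of the GF mice for *Notch1*, *Notch2*, *Dll4* and *Jag1*.

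Of the receptors, *Notch4*, which encodes a receptor found mainly in endothelium, rose in GF mice. Its gene lies on chromosome 17 from 34564268 to 34588503 on the plus strand (GRCm38). In CONV-R mice its level was between 114 and 160 CPM with a median of 132, and in GF replicates 1, 2, 4, 5 and 6 it was 208, 225, 174, 191 and 192 CPM. The lowest GF mouse thus stood above the highest CONV-R mouse. The means were 135 ± 16.1 CPM (SD, n = 6) and 198 ± 19.2 CPM (SD, n = 5), a Log2FC of 0.56 with a standard error (SE) of 0.11 and an adjusted p of 0.00481 (edgeR's quasi-likelihood test, Benjamini-Hochberg adjustment). The spread within each group was small for this gene, at 12.0% of the mean in CONV-R and 9.71% in GF mice.

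The stretch before the annotated start of *Notch4* is shown because this receptor gene separated the groups and its first exon is not part of it. It covers chr17:34564045-34564267 on the plus strand and was taken from RefSeq (GRCm38.p6). The core of the RBPJ binding motif was searched as TGGGAA on both strands, that is also as TTCCCA, in the 250 bases before each gene start. None was found for *Notch4*, so its line holds no capitals, whereas *Rbpj* itself held 2 in its first promoter, of which the one inside the printed stretch (chr5:53590096-53590213, plus strand, which overlaps no annotated exon and lies inside the longest annotated extent of the gene) is in capitals.
Notch4: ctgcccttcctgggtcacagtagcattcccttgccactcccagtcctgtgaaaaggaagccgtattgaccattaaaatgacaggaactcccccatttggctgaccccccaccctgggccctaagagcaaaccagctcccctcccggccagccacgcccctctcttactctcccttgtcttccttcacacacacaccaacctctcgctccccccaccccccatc
Rbpj: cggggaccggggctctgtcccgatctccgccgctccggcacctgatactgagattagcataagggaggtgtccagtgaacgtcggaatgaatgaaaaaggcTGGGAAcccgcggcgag
Of the 10 genes, 8 had an entry among the RefSeq promoters, with 10 promoters in all. The target genes *Hes1* and *Hey1* had no entry and were not searched. The core was in 2 of the 10 promoters, both of *Rbpj*, whose promoters overlap and share 1 of the matches. Of all 32851 promoters of that length, 7094 (21.6%) held it. A match describes the letters of the window and is no measured binding site.

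*Notch1*, the receptor with the best known role in arterial and sinusoidal endothelium, overlapped between the groups. Its gene is found on chromosome 2 from 26457903 to 26516663 on the minus strand. CONV-R mice had 179 to 473 CPM with a median of 347, and GF replicates 1, 2, 4, 5 and 6 had 757, 501, 480, 322 and 399 CPM. Thus 3 of 5 GF mice lay above the highest CONV-R mouse and the other 2 within the CONV-R range. The means were 345 ± 104 CPM (SD, n = 6) and 492 ± 165 CPM (SD, n = 5), with a Log2FC of 0.51, an SE of 0.22 and an adjusted p of 0.177 by edgeR's quasi-likelihood test. Its Log2FC was nearly that of *Notch4*, but its SE was larger. Without GF replicate 1 the Log2FC of *Notch1* was 0.30 (adjusted p = 0.451, edgeR).

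*Notch2*, which in the liver is best known for its role in bile duct formation, was the lowest of the 3 receptors per kilobase of exonic length. Its gene is found on chromosome 3 from 98013527 to 98150361 on the plus strand. It had 13.6 to 21.1 CPM in CONV-R mice and 13.4 to 26.2 CPM in GF mice, so that the GF values spanned the whole CONV-R range. Its Log2FC was 0.12 (SE 0.18, adjusted p = 0.761, edgeR's quasi-likelihood test). It became -0.045 without GF replicate 1.

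Of the ligands, *Jag2*, which encodes one of the Jagged ligands, rose 8.99-fold in GF mice from a very low level. The gene is on chromosome 12 from 112907819 to 112929776 on the minus strand. CONV-R replicates 1 to 6 had 19, 5, 3, 6, 12 and 11 counts, or 0.34 to 1.47 CPM with a median of 0.668. GF replicates 1, 2, 4, 5 and 6 had 52, 103, 16, 64 and 84 counts, or 3.38, 9.95, 1.52, 8.46 and 11.4 CPM. All GF mice were above all CONV-R mice, but GF replicate 4 was only just above CONV-R replicate 1. The means were 0.748 ± 0.44 CPM (SD, n = 6) and 6.94 ± 4.28 CPM (SD, n = 5), with a Log2FC of 3.17, an SE of 0.52 and an adjusted p of 0.00119 by edgeR's quasi-likelihood test. The filter asked for about 10 counts (0.829 CPM) in 5 libraries, which all 5 GF but only 3 of 6 CONV-R libraries of this gene reached, and with no filter the Log2FC was 3.13 (adjusted p = 2.31e-06, edgeR's quasi-likelihood test). The size depended on the scale, being 1.93 when limma was run on the log2 values of the authors.

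*Dll4*, the Delta-like ligand typical of endothelium, had the highest level per length of the 10 genes in both groups. The gene is on chromosome 2 from 119325784 to 119335962 on the plus strand. CONV-R mice had 156 to 234 CPM with a median of 170, and GF replicates 1, 2, 4, 5 and 6 had 333, 197, 215, 139 and 172 CPM. One GF mouse, replicate 1, lay above the CONV-R range and replicate 5 below it. The Log2FC was 0.23 (SE 0.18, adjusted p = 0.483, edgeR's quasi-likelihood test), and without GF replicate 1 it was 0.0024.

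*Dll1*, another Delta-like ligand gene, had the most negative Log2FC of the 10 genes. Its position is chromosome 17 from 15367354 to 15376872 on the minus strand. CONV-R mice had 40.0 to 59.4 CPM with a median of 50.7, and GF replicates 1, 2, 4, 5 and 6 had 27.8, 36.2, 44.9, 28.2 and 49.4 CPM. Thus 3 GF mice lay below every CONV-R mouse and 2 within the CONV-R range. The means of 50.7 ± 6.78 CPM (SD, n = 6) and 37.3 ± 9.72 CPM (SD, n = 5) gave a Log2FC of -0.44 (SE 0.16), which did not pass edgeR's quasi-likelihood test after adjustment (adjusted p = 0.111).

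*Jag1*, the Jagged ligand gene whose human counterpart is mutated in Alagille syndrome, was set apart by 1 mouse. Its position is chromosome 2 from 137081456 to 137116644 on the minus strand. CONV-R mice had 27.0 to 80.4 CPM with a median of 39.9, and GF replicates 1, 2, 4, 5 and 6 had 124, 58.4, 48.0, 43.5 and 44.6 CPM. Apart from GF replicate 1, all GF values lay within the CONV-R range. The Log2FC was 0.45 (SE 0.29, adjusted p = 0.371, edgeR's quasi-likelihood test), and 0.055 without GF replicate 1 (adjusted p = 0.932).

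Of the target genes, *Hey1*, which encodes a repressor induced by Notch in arterial endothelium, rose 2.20-fold in GF mice. The locus is chromosome 3 from 8663359 to 8667256 on the minus strand. CONV-R mice had 3.62 to 10.3 CPM with a median of 6.52, and GF replicates 1, 2, 4, 5 and 6 had 10.6, 15.1, 11.3, 17.5 and 17.8 CPM. The ranges touched almost, with CONV-R replicate 6 just under GF replicate 1, and the libraries held 53 to 163 counts of this gene. The means were 6.55 ± 2.44 CPM (SD, n = 6) and 14.4 ± 3.35 CPM (SD, n = 5), with a Log2FC of 1.14, an SE of 0.26 and an adjusted p of 0.0127 by edgeR's quasi-likelihood test.

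*Hes1*, the classical target of Notch in many cell types, lies on chromosome 16 from 30064384 to 30067796 on the plus strand. CONV-R mice had 33.0 to 65.7 CPM with a median of 38.8, and GF replicates 1, 2, 4, 5 and 6 had 64.8, 36.4, 70.9, 67.6 and 37.4 CPM. Of the GF mice, 3 were near the top of the CONV-R range or above it and 2 near its lower end. The Log2FC was 0.35 (SE 0.21, adjusted p = 0.338, edgeR's quasi-likelihood test).

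*Rbpj*, which encodes the DNA-binding partner of the cleaved receptors and acts as a repressor without them, had a negative Log2FC. It lies on chromosome 5 from 53466152 to 53657362 on the plus strand. CONV-R mice had 30.8 to 44.0 CPM with a median of 37.7, and GF replicates 1, 2, 4, 5 and 6 had 29.4, 30.5, 25.0, 30.5 and 37.6 CPM. All GF mice but replicate 6 lay below the lowest CONV-R mouse. The Log2FC of -0.29 (SE 0.14) did not pass edgeR's quasi-likelihood test (adjusted p = 0.219).

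**Figure D2:**
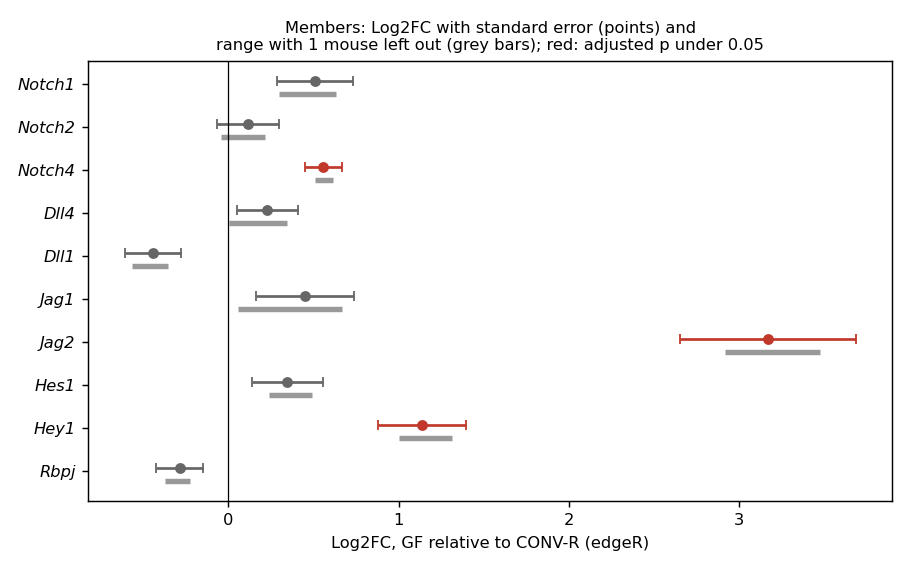
Log2FC (horizontal axis, GF relative to CONV-R) of the 10 genes, with points and thin bars for the estimate and its SE and grey bars for the range when 1 mouse at a time was left out. The genes in red, *Notch4*, *Jag2* and *Hey1*, passed an adjusted p of 0.05 by edgeR's quasi-likelihood test, and the grey bar of *Notch2* crosses 0.

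Levels of different genes were compared per kilobase of exonic length. This length counts every base in any annotated exon of a gene, so it can exceed that of the transcripts present. In CONV-R mice the order was *Dll4* with 46.9 ± 7.69 CPM per kb, *Notch1* with 24.3 ± 7.31, *Hes1* with 21.5 ± 5.91, *Notch4* with 16.7 ± 2.00, *Dll1* with 12.0 ± 1.61, *Jag1* with 8.07 ± 3.29, *Rbpj* with 2.93 ± 0.34, *Hey1* with 2.01 ± 0.75, *Notch2* with 1.60 ± 0.23 and *Jag2* with 0.107 ± 0.063 CPM per kb (SD, n = 6). The ranges of neighbours overlapped for *Notch1* and *Hes1*, for *Hes1* and *Notch4*, for *Dll1* and *Jag1*, for *Rbpj* and *Hey1*, and for *Hey1* and *Notch2*. The order is thus read for *Dll4* at the top and *Jag2* at the bottom, and not within those pairs.

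In GF mice *Dll4* was again highest, with 54.8 ± 19.2 CPM per kb, and *Jag2* lowest, with 0.997 ± 0.61 (SD, n = 5). The ranges of *Dll4* and *Notch1* overlapped in GF mice, as did those of *Notch2* and *Jag2*. *Hey1*, with 4.42 ± 1.03 CPM per kb, stood above *Rbpj*, with 2.40 ± 0.35, without overlap. Of the sum over the 4 ligand genes per length, *Dll4* made up 69.9% ± 5.34 in CONV-R mice and 72.0% ± 3.02 in GF mice. The share of *Dll1* was 18.0% ± 2.18 and 12.6% ± 4.39, that of *Jag1* 11.9% ± 3.92 and 14.0% ± 2.97, and that of *Jag2* 0.158% ± 0.080 and 1.51% ± 1.07. Even at its higher level, *Jag2* was therefore a small share of the ligand transcripts. Of the 3 receptor genes, *Notch1* made up 56.0% ± 7.06 and 55.8% ± 6.82, *Notch4* 40.2% ± 6.84 and 41.4% ± 6.90, and *Notch2* 3.82% ± 0.50 and 2.82% ± 0.20. These shares (SD, n = 6 and n = 5) were not tested.

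Whether a pair of these genes differed by unequal amounts was tested with the log2 ratio of their counts within each library, which needs no scaling between libraries. The ratio of *Hes1* to *Hey1* was 2.78 ± 0.66 in CONV-R mice (SD, n = 6) and 1.91 ± 0.73 in GF mice (SD, n = 5). The difference of -0.87 did not pass the two-sided exact permutation test over all splits of the mice (p = 0.0779), so the Log2FC of *Hey1* and *Hes1* were not shown to differ. It passed without CONV-R replicate 6, at -1.05 (exact permutation p = 0.0397), and without GF replicate 4, at -1.05 (exact permutation p = 0.0476). The ratio of *Notch1* to *Notch4* was 1.30 ± 0.42 and 1.26 ± 0.42 (exact permutation p = 0.870). The ratio of *Dll4* to *Jag1* was 2.02 ± 0.57 and 1.79 ± 0.28 (exact permutation p = 0.437), a difference of -0.22 that was -0.10 without CONV-R replicate 2 and -0.37 without CONV-R replicate 3. Adjusted over these 3 ratios by Benjamini-Hochberg, none passed, and the exact p of *Hes1* to *Hey1* became 0.234.

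**Figure D3:**
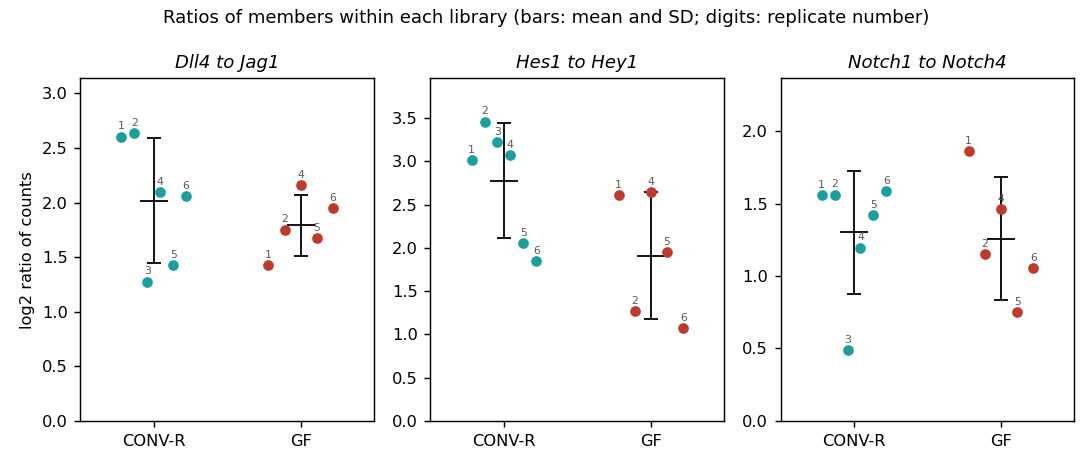
Log2 ratio of counts within each library (vertical axis) for 3 pairs of genes, where each point is 1 mouse labelled with its replicate number and the bars give the mean and SD. For *Hes1* to *Hey1*, the GF mean of 1.91 lies below the CONV-R mean of 2.78 with overlapping points, and for *Notch1* to *Notch4* the CONV-R replicate 3 lies alone at 0.49.

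The other genes of the pathway were followed on lists fixed by role, which held 65 genes, 50 of them tested. Of these 50, 6 rose and 2 fell in GF mice (edgeR's quasi-likelihood test), against 4.8% and 2.67% of all tested genes. The median Log2FC was 0.17. None of the 5 genes for other receptors and ligands, such as *Notch3*, passed edgeR's filter on low counts. DESeq2 gave an adjusted p to 1 of the 5 and called 0. *Lfng*, the fringe enzyme that adds sugars to the receptor and thereby alters its response to Delta-like and Jagged ligands, rose in GF mice. Its CONV-R replicates 1 to 6 had 19.5, 12.8, 4.67, 13.3, 17.6 and 15.1 CPM, and GF replicates 1, 2, 4, 5 and 6 had 37.7, 56.7, 31.3, 37.8 and 45.3 CPM. The groups were well apart, with means of 13.8 ± 5.16 and 41.8 ± 9.70 CPM (SD, n = 6 and n = 5), a Log2FC of 1.58, an SE of 0.26 and an adjusted p of 0.00106 (edgeR). It was the only 1 of 5 tested glycosylation genes that passed. The enzymes that add fucose and glucose to the receptor, encoded by *Pofut1* and *Poglut1*, had Log2FC of -0.076 (adjusted p = 0.705) and 0.052 (adjusted p = 0.866) by edgeR's quasi-likelihood test.

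Of the 10 genes of receptor cleavage, 3 were called higher and none lower, and all 3 encode parts of gamma-secretase. *Ncstn*, which encodes nicastrin, had 145 ± 15.5 CPM in CONV-R mice (SD, n = 6) and 208 ± 38.0 CPM in GF mice (SD, n = 5), a Log2FC of 0.52 (SE 0.13, adjusted p = 0.0173, edgeR's quasi-likelihood test). *Psen2*, for the catalytic presenilin 2, had 67.0 ± 18.6 and 105 ± 16.4 CPM, a Log2FC of 0.65 (SE 0.17, adjusted p = 0.0278, edgeR). *Aph1b*, for a scaffold subunit, had 9.66 ± 2.69 and 18.1 ± 6.52 CPM, a Log2FC of 0.91 (SE 0.26, adjusted p = 0.0402, edgeR). The calls of *Psen2* and *Aph1b* were close to the threshold. That of *Psen2* was lost without CONV-R replicate 2, 4, 5 or 6 or GF replicate 1 or 4, with adjusted p of 0.0508 to 0.0697 over these. That of *Aph1b* was lost without CONV-R replicate 1, 2, 4 or 6 or GF replicate 1, 2 or 6 and under both limma fits, with adjusted p of 0.0595 to 0.112. The proteases that make the first cut, encoded by *Adam10* and *Adam17*, had Log2FC of 0.20 (adjusted p = 0.417) and -0.023 (adjusted p = 0.935) by edgeR's quasi-likelihood test.

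In the nucleus, *Tle1*, a Groucho-type corepressor that partners HES repressors, rose from 139 ± 16.1 CPM (SD, n = 6) to 318 ± 52.6 CPM (SD, n = 5), a Log2FC of 1.19 (SE 0.12, adjusted p = 1.22e-05, edgeR's quasi-likelihood test). Its GF values did not overlap with those of CONV-R mice, and the other 12 of 13 tested corepressor genes did not pass. Among these, *Ncor1*, for a nuclear receptor corepressor, had a Log2FC of -0.0034 (adjusted p = 0.990), and *Kdm5a*, for a histone demethylase, had 0.14 (adjusted p = 0.636). None of the 7 tested coactivator genes passed edgeR's quasi-likelihood test, although 2 had an unadjusted p under 0.05, and DESeq2 called 0. The histone acetyltransferase genes *Ep300* and *Kat2b* had Log2FC of 0.19 (adjusted p = 0.377) and -0.14 (adjusted p = 0.451). None of the 3 tested genes for ubiquitin ligases that act on ligands passed either, with 0 at an unadjusted p under 0.05 and 0 called by DESeq2, and *Mib1* and *Mib2* had Log2FC of 0.17 and -0.023.

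The 2 genes that fell both belong to the 7 tested genes of receptor turnover. *Numbl*, which encodes a relative of the Notch antagonist Numb, had 13.3 ± 3.43 CPM in CONV-R mice (SD, n = 6) and 6.97 ± 1.56 CPM in GF mice (SD, n = 5) without overlap, a Log2FC of -0.92 (SE 0.23, adjusted p = 0.0194, edgeR's quasi-likelihood test). *Dtx3*, for a Deltex-type ubiquitin ligase, had 16.1 ± 2.84 and 9.08 ± 3.67 CPM, a Log2FC of -0.82 (SE 0.24, adjusted p = 0.0485, edgeR). The call of *Dtx3* was lost without any 1 of the 6 CONV-R mice and without GF replicate 2, 4 or 6, with adjusted p of 0.0568 to 0.116. That of *Numbl* was lost without CONV-R replicate 5 (adjusted p = 0.0518) and without GF replicate 6 (adjusted p = 0.0508). *Numb* itself, with a Log2FC of -0.039 (adjusted p = 0.853), and *Itch*, for a ubiquitin ligase, with 0.29 (adjusted p = 0.229), did not pass. *Dtx3l*, for another Deltex-type protein, had a Log2FC of 0.43 (adjusted p = 0.0689, edgeR) and was called higher by DESeq2.

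Of 12 further target genes and genes of the HES and HEY families, 5 could be tested. *Gja4*, which encodes the arterial gap junction protein connexin 37, rose from 93.5 ± 25.3 CPM (SD, n = 6) to 179 ± 14.6 CPM (SD, n = 5), a Log2FC of 0.94 (SE 0.16, adjusted p = 0.00141, edgeR's quasi-likelihood test). Its lowest GF mouse had 164 CPM and its highest CONV-R mouse 131 CPM. *Gja5*, for connexin 40, had a Log2FC of 0.92 (adjusted p = 0.0541), and *Efnb2*, for the arterial ligand ephrin B2, had 0.54 (adjusted p = 0.157). All 5 tested genes of this list had a positive Log2FC, with a median of 0.65, and both DESeq2 and the replicate block called *Gja5* as well as *Gja4*.

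**Figure D4:**
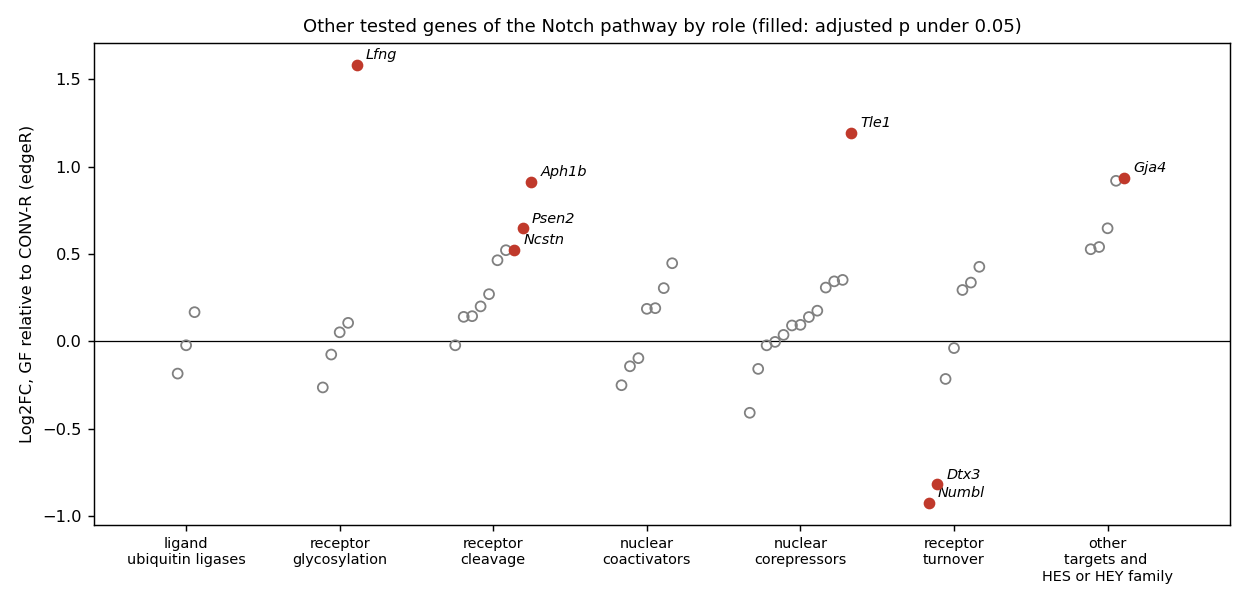
Log2FC (vertical axis, GF relative to CONV-R) of the 50 tested pathway genes other than the 10 described first, arranged by role along the horizontal axis. Filled points passed an adjusted p of 0.05 by edgeR's quasi-likelihood test, with *Lfng* highest at 1.58 and *Numbl* lowest at -0.92.

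Genes whose pattern was most like that of the 3 genes that rose were sought by the mean absolute difference of log2 CPM, scaled to a mean of 0 and an SD of 1 over the 11 libraries, so that likeness includes the difference between the groups. Nearest to *Notch4* were *Cln8*, at 0.225 SD, *1700017B05Rik*, at 0.235 SD, and *Tmem2*, at 0.238 SD. Nearest to *Jag2* were *Ly6c1*, at 0.257 SD, *Ablim1*, at 0.271 SD, and *Map3k5*, at 0.272 SD. Nearest to *Hey1* was *Rgcc*, at 0.157 SD, with a Log2FC of 4.10, followed by *Slc28a2*, at 0.238 SD, and *Cxcl12*, which encodes a chemokine, at 0.246 SD and with a Log2FC of 2.34. These distances describe the 11 libraries and were not tested.

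The libraries held 7242717 to 16164588 counts. The endothelial label was borne out by its markers, with *Pecam1* at a mean of 562 CPM and *Stab2* at 7482 CPM in CONV-R mice. None of the 6 pan-endothelial and 7 sinusoidal marker genes passed edgeR's quasi-likelihood test, although 3 of each list had an unadjusted p under 0.05, and DESeq2 called 0 of either. With the replicate block *Mcam*, which encodes the sorting marker CD146, was called higher. Markers of other cells did move with the group. Of 10 Kupffer cell (liver macrophage) markers, 7 rose in GF mice, and their summed level was 86.0 to 222 CPM in CONV-R and 197 to 931 CPM in GF mice. *C1qa* had 0 counts in 1 library, and the other 9 had counts in all 11. Of 6 tested arterial markers outside the 10 genes, *Gja4* and *Sema3g* were higher in GF mice, with summed levels of 470 to 582 and 543 to 847 CPM over the list. Of the 6, *Efnb2*, *Gja4* and *Gja5* are also on the list of further target genes, so these lists are not separate. The 6 had a median Log2FC of 0.73, 5 of them a positive one and 5 an unadjusted p under 0.05, and DESeq2 and the replicate block each called 3, with *Gja5* added. *Sema3g* also reached the filter only with its GF libraries. *Sox17*, an arterial transcription factor gene on the same list, had 229 ± 32.5 CPM in CONV-R mice (SD, n = 6) and 183 ± 37.9 CPM in GF mice (SD, n = 5), a Log2FC of -0.32 that did not pass (adjusted p = 0.161, edgeR). Of 5 cholangiocyte (bile duct cell) markers, 2 were tested and *Spp1* was higher, with summed levels of 0.137 to 8.96 and 13.6 to 36.8 CPM. *Epcam* had 0 counts in 3 and *Krt19* in 4 of the 11 libraries. None of 7 tested hepatocyte, 3 stellate cell, 3 smooth muscle and 3 lymphocyte markers passed edgeR's quasi-likelihood test, with 1, 1, 0 and 2 at an unadjusted p under 0.05 and 0, 1, 0 and 1 called by DESeq2. The part of these cell types in the results was not tested. The highest Kupffer sum was that of GF replicate 6, and the other GF mice had 197 to 357 CPM. Without GF replicate 6 the Log2FC was 0.57 for *Notch4* (adjusted p = 0.0114), 2.92 for *Jag2* (adjusted p = 0.00482) and 1.05 for *Hey1* (adjusted p = 0.0384) by edgeR's quasi-likelihood test.

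Some of the 10 genes share exonic bases with a gene on the opposite strand, and the strand setting of the counting was not stated, so that reads of the partners cannot be told apart where they overlap. *Dll4* shares 214 bases with *Gm14207*, which had 747 counts over the 11 libraries, and *Dll1* shares 867 bases with *A930024N18Rik*, which had 541 counts. *Notch1* shares 1068 bases with *0610009E02Rik*, which had 53 counts, and 414 bases with *Gm13568*, which had 7 counts. On the same strand, *Notch2* shares 541 bases with *Gm42820*, which is not among the genes of the count table. No exonic overlap with another annotated gene was found for *Notch4*, *Jag2* or *Hey1*.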

How the data were processed

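Bulk RNA libraries of sorted hepatic sinusoidal ECs were grouped by their sample labels into 6 CONV-R and 5 GF mice, 1 library each. The counts deposited by the authors are whole numbers of reads per gene and are not normalized. They had trimmed reads with Trim Galore, aligned them to GRCm38 using STAR and assigned them to genes using featureCounts. They left out 1 GF library with few mapped reads. A table of log2 values deposited by the authors had been normalized between libraries by the DESeq method. The annotation release and the strand setting of the counting are not given in the sources used here. Whole-transcriptome amplification of cDNA has no molecular identifiers, so counts are not independent molecules.

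The table lists 29307 genes, of which 3978 had 0 counts in all 11 libraries, and 29146 were matched to GENCODE M21 (GRCm38) by identifier for positions and exonic lengths. Low counts were removed with filterByExpr of edgeR 4.0.16 (R 4.3.3), which left 12905 genes. The difference between GF and CONV-R mice was tested with edgeR's quasi-likelihood method after TMM normalization, with Benjamini-Hochberg adjustment over all tested genes and a threshold of 0.05. The SE was derived from the Log2FC and its test statistic. Log2 ratios used a pseudocount of 0.5 counts and a two-sided exact permutation test (scipy 1.17.1 under Python 3.11.15). Plots were drawn with matplotlib 3.10.9. Fits were tested on simulated data.

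The 10 genes and the gene lists were chosen with earlier results of these data known. Named besides the 10 were each pathway gene with an adjusted p under 0.05, up to 2 of the most abundant others per list, and the 3 genes most like each of the 10 that passed. *Dtx3l*, single marker genes and the genes of the last observations were named after their values were seen. The alternatives were DESeq2 1.42.0, voom of limma 3.58.1, limma on the log2 values of the authors, DESeq2's size factors, no filter, a replicate block, a pseudocount of 2 counts and each mouse left out in turn.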

Additional observations from a re-analysis of the deposited data

Results flagged for a closer look

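In 2 of 42 groups of values, 1 mouse stood apart from the rest of its group by Dixon's test at its 95% critical value, which chance alone passes in about 5% of groups. *Jag1* had 124 CPM in GF replicate 1, while the other GF mice had 43.5 to 58.4 CPM. The log2 ratio of *Notch1* to *Notch4* was 0.49 in CONV-R replicate 3, while it was 1.20 to 1.59 in the other CONV-R mice. *Notch1* itself had its lowest CONV-R value, 179 CPM, in that mouse, and its *Notch4* level of 127 CPM was inside the range of its group.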

How the results depend on the processing

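The count of 3 of the 10 genes called was the same under all 17 alternatives, with *Notch4*, *Jag2* and *Hey1* called by edgeR, DESeq2, voom, limma on the log2 values of the authors and the replicate block. Over all genes, 965 were called, DESeq2 called 1527 (956 shared with edgeR), and leaving out 1 mouse gave 622 (without GF replicate 6) to 1260 (without GF replicate 5), with 625 without CONV-R replicate 4. DESeq2 gave an adjusted p to 15540 genes against 12905 in edgeR, and the cause of the higher count was not tested. The 8 calls among the other pathway genes became 5 to 10 when 1 mouse was left out, with 5 when CONV-R replicate 2, 4 or 6 or GF replicate 6 was left out. With 1 mouse left out, the Log2FC of *Notch2* was -0.045 to 0.21, negative without GF replicate 1 only, that of *Notch1* 0.30 to 0.63, *Dll4* 0.0024 to 0.35 and *Jag1* 0.055 to 0.67. It was 0.51 to 0.61 for *Notch4*, 2.92 to 3.48 for *Jag2* and 1.00 to 1.31 for *Hey1*. The difference in the log2 ratio of *Notch1* to *Notch4* was -0.21 to 0.081, with a positive sign in 5 cases, at 0.0056, 0.0060 and 0.011 with CONV-R replicate 1, 2 or 6 left out and 0.081 and 0.0047 with GF replicate 5 or 6 left out. That of *Hes1* to *Hey1* was -1.05 to -0.66 and that of *Dll4* to *Jag1* -0.37 to -0.10. Samples of the groups share replicate numbers only: deviations of same-numbered mice correlated by -0.014 to 0.20, and 2 of 5 numbers correlated best with their own. With the replicate block, which leaves out CONV-R replicate 3, 1101 genes were called against 931 for the same libraries without it, 9 other pathway genes against 7, and the 10 genes gave 3 calls, with Log2FC of 0.54, 2.90 and 1.21 for *Notch4*, *Jag2* and *Hey1*. Of the 10 genes, *Jag2* had the fewest counts, with 56 over the 6 CONV-R libraries.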

Other observations

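Which GF mouse was highest or lowest was the same for some of the 10 genes, which was noticed in the data and not tested. *Notch1*, *Notch2*, *Dll4* and *Jag1* had their highest GF value in replicate 1 and their lowest in replicate 5. *Dll1*, *Jag2*, *Hey1* and *Rbpj* had their highest GF value in replicate 6. *Notch4* was highest in replicate 2 and *Hes1* in replicate 4. *Efnb2* also had its highest and lowest GF values in replicates 1 and 5, with 409 and 147 CPM. The GF libraries of replicates 1 and 5 were also the deepest and the shallowest, with 16164588 and 7242717 counts. In CONV-R mice *Notch1* and *Notch2* were lowest in replicate 3, as was *Efnb2* with 92.1 CPM, and this was the shallowest CONV-R library with 7922855 counts. *Notch1*, *Notch4*, *Dll4* and *Jag2* were highest in CONV-R replicate 1, whose 12690451 counts were fewer than the 14669352 of replicate 2. The part of depth in these values was not tested.

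The pathway genes *Notch3*, *Hes5*, *Hey2* and *Heyl* were near the limit of detection or below it. *Notch3*, the receptor of smooth muscle and pericytes, had a mean of 0.310 CPM in CONV-R and 1.04 CPM in GF mice, too low to pass edgeR's filter. *Hes5*, a target prominent in the nervous system, had 0 counts in all 11 libraries, and *Hey2* and *Heyl*, relatives of *Hey1* with arterial and mural expression, had at most 0.614 CPM as a group mean.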
